A study of Homo sapiens with 30 samples.

Results

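Depletion of BRD8 and depletion of TIP60 were set directly against each other in HCT116 cells, a human colorectal cancer line. The comparison used 12 of the 30 libraries of the series, 6 from cells given a BRD8 siRNA (3 each of siBRD8-6 and siBRD8-36) and 6 from cells given a TIP60 siRNA (3 each of siTIP60-2 and siTIP60-11), and no control library entered its tests. All cells received 10 nM of a single siRNA by lipid transfection and were harvested at 48 h, so that every library here came from a transient and incomplete depletion in 1 line. Its members are the genes for which each BRD8 siRNA differed from each TIP60 siRNA in 1 direction, 2515 of the 15725 genes tested. Such a gene is said below to have a four-way call. A call required that the 4 log2 differences between siRNAs have the same sign and that the largest of the 4 p-values (edgeR quasi-likelihood test, Benjamini-Hochberg adjustment over all genes tested) stay under 0.05. Levels are CPM (read counts scaled to library size), and differences are log2 of the BRD8 siRNAs minus the TIP60 siRNAs, so that a negative value means a lower level after BRD8 depletion. Nothing in the labels tells whether the 3 libraries of an siRNA came from separate cultures, and the spread behind each p-value may be technical.

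TIP60, encoded by KAT5, is the catalytic subunit of a large multisubunit histone acetyltransferase complex that acetylates histones H4, H2A and the variant H2A.Z. Other modules of the complex include the scaffold TRRAP, the ATPase EP400, the EPC1 or EPC2 subunits that anchor the acetyltransferase, and the RUVBL1 and RUVBL2 ATPases. BRD8 carries a bromodomain, a fold that binds acetylated lysine, and sits in the complex with MRGBP and the MRG-domain proteins MORF4L1 and MORF4L2. The comparison asks where loss of the bromodomain subunit and loss of the enzyme leave different transcript levels.

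The genes lower after BRD8 than after TIP60 depletion included many of DNA replication and a smaller group of mitotic genes. The promoters of 4 of these genes are shown because they carry, in different combinations, letters that recur in the promoters of such genes: the E2F site (TTTGGCGC or TTTCCCGC), the cell cycle genes homology region or CHR (TTTGAA or TTCGAA) and the CCAAT box (CCAAT). Each sequence runs from 250 bases before to 50 bases after the RefSeq transcription start on the gene's strand (GRCh38.p14), and capitals mark the matches on either strand. MCM7 encodes a subunit of the replicative helicase and its promoter lies at chr7:100101348-100101647 (minus strand). CDC45, a second helicase component, has its promoter at chr22:19479670-19479969 (plus strand). PRC1 bundles microtubules of the spindle midzone and has its promoter at chr15:90994486-90994785 (minus strand). CDKN3, a phosphatase of cyclin-dependent kinases, has its promoter at chr14:54396757-54397056 (plus strand).
MCM7: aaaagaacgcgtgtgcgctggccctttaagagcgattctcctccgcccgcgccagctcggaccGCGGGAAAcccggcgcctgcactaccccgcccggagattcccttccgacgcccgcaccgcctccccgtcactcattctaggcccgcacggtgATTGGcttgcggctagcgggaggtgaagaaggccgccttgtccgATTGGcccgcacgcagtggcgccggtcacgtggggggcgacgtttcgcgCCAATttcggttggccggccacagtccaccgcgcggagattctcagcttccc
CDC45: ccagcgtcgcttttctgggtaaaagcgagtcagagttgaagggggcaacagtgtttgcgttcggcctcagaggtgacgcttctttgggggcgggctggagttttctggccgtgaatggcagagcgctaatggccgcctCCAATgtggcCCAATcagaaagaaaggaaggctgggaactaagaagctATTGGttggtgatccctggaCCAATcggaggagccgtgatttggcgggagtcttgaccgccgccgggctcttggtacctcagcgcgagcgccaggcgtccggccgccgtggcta
PRC1: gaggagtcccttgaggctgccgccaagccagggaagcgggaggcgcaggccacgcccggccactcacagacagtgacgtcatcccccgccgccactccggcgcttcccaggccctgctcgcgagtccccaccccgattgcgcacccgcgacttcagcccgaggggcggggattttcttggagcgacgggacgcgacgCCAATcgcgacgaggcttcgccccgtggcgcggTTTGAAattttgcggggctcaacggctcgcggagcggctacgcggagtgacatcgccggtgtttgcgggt
CDKN3: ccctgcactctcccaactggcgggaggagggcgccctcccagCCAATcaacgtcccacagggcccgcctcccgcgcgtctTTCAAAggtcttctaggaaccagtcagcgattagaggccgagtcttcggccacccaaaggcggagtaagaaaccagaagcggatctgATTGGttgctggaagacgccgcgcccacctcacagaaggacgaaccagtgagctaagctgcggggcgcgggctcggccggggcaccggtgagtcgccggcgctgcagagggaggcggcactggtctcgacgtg
The MCM7 promoter held 1 E2F site and 3 CCAAT boxes, that of CDC45 held 4 CCAAT boxes, that of PRC1 held 1 CHR and 1 CCAAT box, and that of CDKN3 held 1 CHR and 2 CCAAT boxes. The same rule also took the promoters of SLC29A1 and XRCC2, which are not printed. That of SLC29A1 held 0 matches to any of these letters, and that of XRCC2 held 1 E2F site, 0 CHR and 0 CCAAT boxes. Of 12666 protein-coding genes tested that were looked up, 10594 matched a RefSeq promoter. An E2F site was found in 3.66% of these, in 5.57% of those lower with the BRD8 siRNAs (54 of 969) and in 2.38% of those higher (24 of 1007). A CHR was found in 10.9% of the promoters of genes tested, 13.7% of those lower and 8.84% of those higher. A CCAAT box was found in 36.6%, 41.0% and 35.2% respectively. Over all 27305 RefSeq promoters the shares were 2.31% for the E2F site, 16.6% for the CHR and 35.7% for the CCAAT box. Among genes with a lower call the E2F site occurred in 5 of 8 promoters of the pre-replication complex and 6 of 13 of the replication fork, in 2 of 12 of homologous recombination and Fanconi repair, and in 0 of 6 of nucleotide synthesis and 0 of 7 of the kinesin and kinetochore list. A CHR occurred in 4 of those 7 promoters and in 0 of the 13 of the replication fork. It was also found in 3 of 5 of the mitotic kinases and cyclins and 2 of 6 of nucleotide synthesis. The BMP and TGF-beta feedback list had it in 2 of 5, the pre-replication complex in 1 of 8 and the repair list in 1 of 12. List members without a call were not counted, so these shares may describe the lists and not the calls. These matches are descriptions of letters and not of bound sites.

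The 12 libraries held 14.7 to 18.6 M counts each. On log2(CPM + 1), the first principal component (42.1% of the variance) set the siBRD8-36 libraries (45.7 to 48.6) apart from the other 9 (−25.5 to −1.22), and the second (25.6%) set the siBRD8-6 libraries (37.8 to 38.6) apart from the rest (−17.4 to −9.77). Both TIP60 siRNAs lay near each other, and the BRD8 siRNAs lay far from each other. Counts from mitochondrially encoded genes took 1.63% to 2.55% of the BRD8 libraries and 2.15% to 3.07% of the TIP60 libraries. Of 11 colorectal epithelial markers 9 passed the filter on low counts, with summed levels of 6080 to 6403 CPM with siBRD8-6, 7502 to 8045 with siBRD8-36 and 6570 to 6873 with the TIP60 siRNAs, while LGR5 was at 0 with siBRD8-6 and siTIP60-2. Of 9 fibroblast markers 2 passed, with summed levels of 30.1 to 37.0 CPM with siBRD8-6, 56.7 to 70.1 with siBRD8-36 and 24.4 to 29.4 with the TIP60 siRNAs, nearly all of it COL1A1, and DCN was at 0 with every depleting siRNA. Leukocyte markers (3 of 9 passed) summed to 3.58 to 11.2 CPM in the BRD8 libraries and 7.62 to 23.7 in the TIP60 libraries, with CD3E at 0 in 3 of the 4 depleted groups. Endothelial markers (1 of 8 passed) summed to 2.60 CPM at most.

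**Figure D1:**
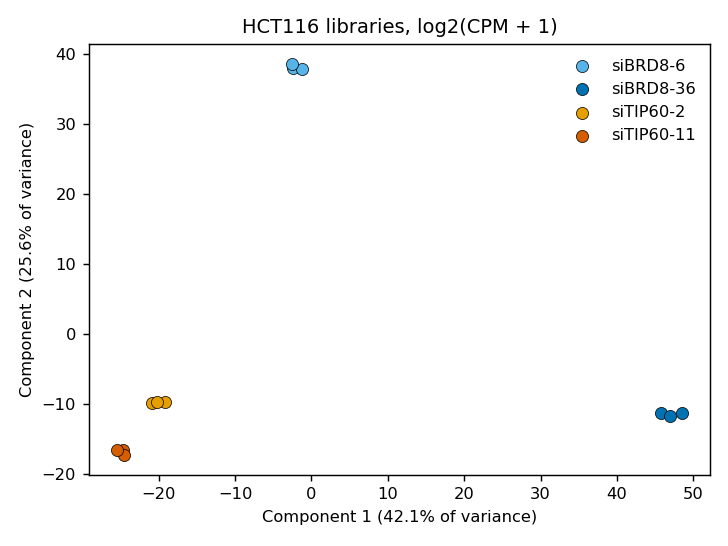
Principal components of the 12 HCT116 libraries on log2(CPM + 1), with 1 point per library and the share of variance on each axis. The siBRD8-36 libraries lie at 45.7 to 48.6 on the first component, the siBRD8-6 libraries at 37.8 to 38.6 on the second, and the libraries of both TIP60 siRNAs together at the lower left.

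Of the 15725 genes tested, 1263 were higher with the BRD8 siRNAs by the four-way call (8.03%) and 1252 were lower (7.96%), 16.0% in all. The median difference was 0.61 for the higher genes and −0.69 for the lower genes, against −0.02 over all genes tested. All 4 differences were at least 2-fold for 159 genes, 55 higher and 104 lower, and at least 1.5-fold for 582. Calls of protein-coding genes numbered 2410 of 13114 tested. At the threshold, the last gene called had an adjusted p of 0.0499 and the first one not called had 0.0505, and the smallest difference in any called gene was 0.11. For 2443 of the 2515 genes all 6 BRD8 libraries lay on 1 side of all 6 TIP60 libraries, which 3177 genes did in all (20.2%). In these bulk cultures, fewer cells that express a gene and less RNA per cell cannot be told apart.

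The average of the BRD8 siRNAs differed from the average of the TIP60 siRNAs for 10330 genes (65.7%), 4936 higher and 5394 lower, whereas limma on log2(TPM + 1) gave more higher (4697) than lower (4095). That count holds 7815 genes for which the 4 comparisons did not all pass in 1 direction. The siRNAs of 1 target also differed among themselves: siBRD8-6 from siBRD8-36 for 9607 genes (61.1%), and siTIP60-2 from siTIP60-11 for 8093 (51.5%). Against both TIP60 siRNAs, siBRD8-6 alone differed in 1 direction for 5549 genes (35.3%) and siBRD8-36 alone for 6928 (44.1%), and for 690 genes these 2 calls pointed in opposite directions. Of the genes with a four-way call, 1940 also differed between the siRNAs of at least 1 target. That count has no counterpart over all genes tested, for which only the shares by target are given. With the 2 siRNAs of a target as the replicates in place of the libraries, 0 genes passed limma's test after adjustment. The smallest adjusted p was then 0.333, and 1407 genes (8.95%) had an unadjusted p under 0.05, 1186 of them with a four-way call. The plot of both BRD8 siRNAs against the TIP60 siRNAs shows the called genes along the diagonal and a wide field of genes that moved with 1 BRD8 siRNA.

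**Figure D2:**
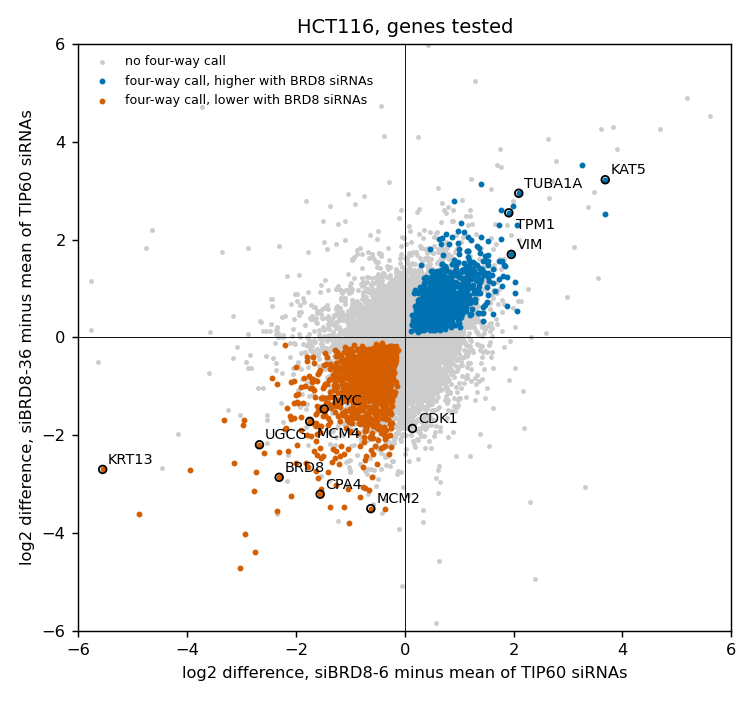
Log2 difference of siBRD8-6 (horizontal) and of siBRD8-36 (vertical) from the mean of the TIP60 siRNAs in HCT116, with 1 point per gene tested and four-way calls in colour. MCM4 and MYC lie near the diagonal, MCM2 is far lower with siBRD8-36, and CDK1 is lower with siBRD8-36 only, while 7 genes lie beyond the axis limit of 6.

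The levels of both targets check the labels. BRD8 (chr5:138139766-138178986 on GRCh38, minus strand, protein-coding) stood at 8.18, 9.17 and 8.83 CPM with siBRD8-6, 5.50, 5.84 and 6.49 with siBRD8-36, 47.1, 42.6 and 40.8 with siTIP60-2, and 45.1, 43.2 and 39.7 with siTIP60-11. KAT5 (chr11:65711996-65719604, plus strand, protein-coding) stood at 55.1, 51.2 and 54.05 CPM with siBRD8-6, 37.2, 40.2 and 39.5 with siBRD8-36, 3.53, 3.56 and 3.60 with siTIP60-2, and 4.98, 4.72 and 4.70 with siTIP60-11. Each target was far below control only in the libraries of its own siRNAs, with 38.4 to 45.2 CPM of BRD8 and 46.7 to 50.4 CPM of KAT5 in the control libraries. Residual BRD8 was lower with siBRD8-36 than with siBRD8-6, by a log2 difference of 0.55 (SE 0.108, adjusted p = 0.000115). KAT5 was also lower with siBRD8-36 than with siBRD8-6, by 0.46 (adjusted p = 1.09e-07).

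Transcripts of other subunits of the complex differed too. Among the 18 listed genes of the complex, which include both targets, 4 were higher and 6 lower with the BRD8 siRNAs by the four-way call (55.6%, against 16.0% of all genes tested). EPC1, which anchors TIP60 in the complex, was lower at 26.9, 25.9 and 25.95 CPM with siBRD8-6, 18.4, 16.3 and 18.2 with siBRD8-36, 39.9, 37.4 and 41.3 with siTIP60-2, and 40.1, 43.5 and 43.9 with siTIP60-11. Every BRD8 library lay below every TIP60 library, with a mean difference of −0.93 (SE 0.0458, adjusted p = 1.28e-07), and the control libraries lay at 17.7 to 24.6. MORF4L2, an MRG-domain protein of the BRD8 module, stood higher at 352, 345 and 354 CPM with siBRD8-6, 361, 351 and 362 with siBRD8-36, 228, 216 and 223 with siTIP60-2, and 226, 225 and 233 with siTIP60-11. The BRD8 libraries lay above the TIP60 and the control libraries (252 to 267 CPM), with a mean difference of 0.65 (SE 0.0274, adjusted p = 3.52e-11), although MORF4L2 has close copies that can share reads. RUVBL2 (0.53) and MEAF6 (0.51) were higher as well, and TRRAP (−0.48), EP400 (−0.44), ING3 (−0.46) and EPC2 (−0.29) were lower. MRGBP, the direct partner of BRD8, had no call (mean difference −0.14). Over the list the median was −0.14.

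Most genes that license replication origins were lower after BRD8 than after TIP60 depletion. Of the 14 genes of the pre-replication complex, 10 had a lower four-way call and 0 a higher one (71.4%, against 16.0% of all genes tested), with a median difference of −0.996. The medians were −0.49 and −0.30 for siBRD8-6 against siTIP60-2 and siTIP60-11, and −1.62 and −1.44 for siBRD8-36. All 6 subunits of the MCM2 to MCM7 helicase that unwinds DNA were among the 10 (MCM3 −0.67 and MCM6 −0.56), with the origin recognition subunits ORC1 (−1.20), ORC2 (−0.48) and ORC3 (−0.73), and CDC6 (−0.99), which loads the helicase. MCM4 stood at 82.4, 87.8 and 73.7 CPM with siBRD8-6, 83.7, 80.9 and 84.5 with siBRD8-36, 315, 294 and 327 with siTIP60-2, and 241, 227 and 244 with siTIP60-11. The difference was nearly the same with either BRD8 siRNA, −1.73 (SE 0.0396, adjusted p = 5.85e-15) on average, and the control libraries (215 to 228) lay between the BRD8 libraries and those of siTIP60-2. MCM2 stood at 149, 155 and 146 CPM with siBRD8-6, 21.2, 20.7 and 19.5 with siBRD8-36, 215, 230.2 and 228 with siTIP60-2, and 236, 237 and 238 with siTIP60-11. Here siBRD8-36 was far below siBRD8-6, and both were below the TIP60 and the control libraries (202 to 219), with a mean difference of −2.06 (SE 0.0336, adjusted p = 3.33e-10). MCM7, whose promoter is printed above, stood at 260.4, 276 and 264 CPM with siBRD8-6, 112, 123 and 119.6 with siBRD8-36, 399, 417 and 425 with siTIP60-2, and 476, 464 and 450.5 with siTIP60-11. The BRD8 libraries did not overlap the TIP60 or the control libraries (432 to 453), with a mean difference of −1.31 (SE 0.0311, adjusted p = 1.05e-10). MCM5 gave −1.15 (SE 0.0302, adjusted p = 4.53e-12). CDT1, the other loading factor, and ORC4, ORC5 and ORC6 had no four-way call. CDT1 stood at 96.8 ± 7.08 CPM with siBRD8-6 and 31.5 ± 1.65 with siBRD8-36, against 121 ± 2.11 and 100.00 ± 6.37 with the TIP60 siRNAs (SD, n = 3 libraries).

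**Figure D3:**
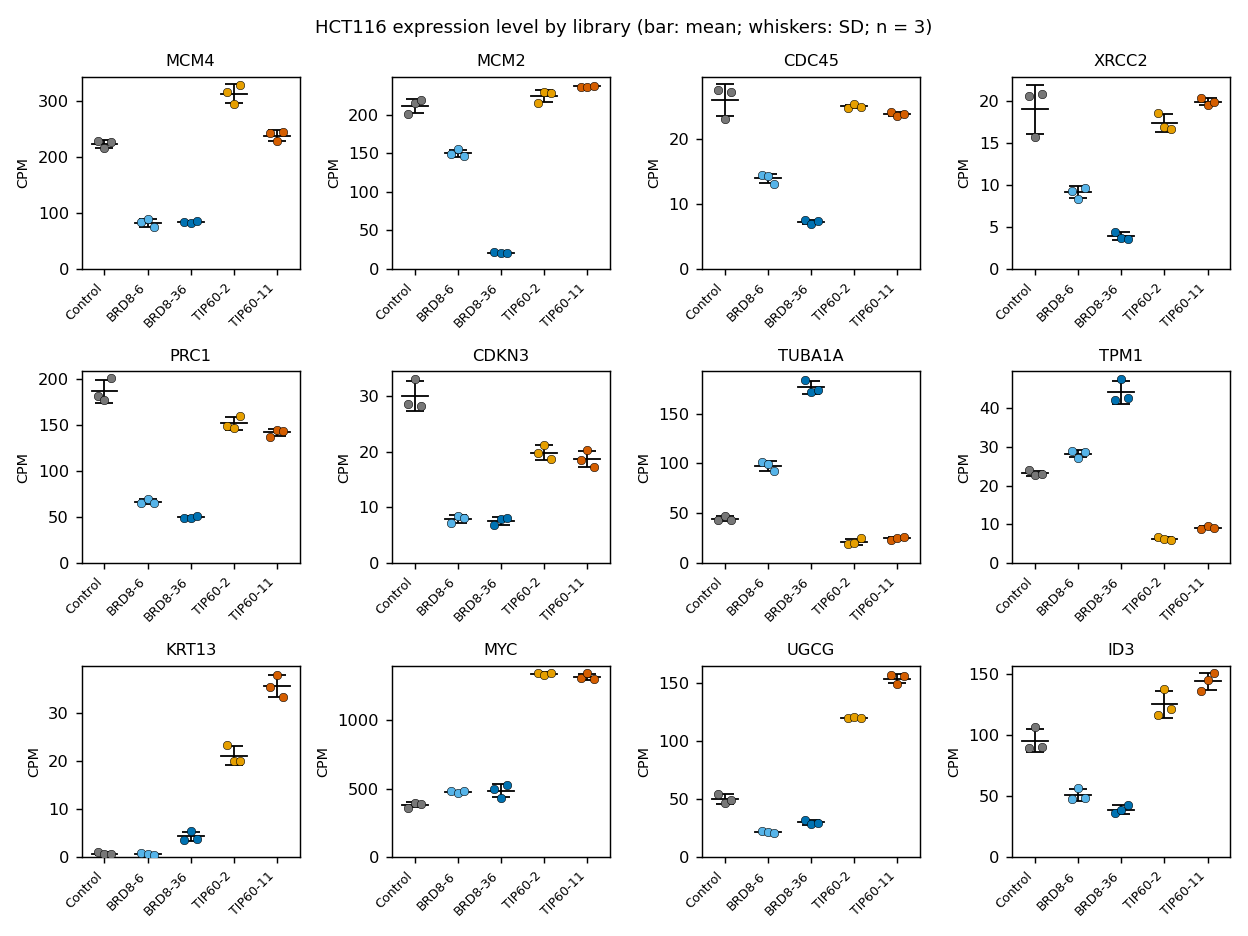
Expression level (CPM) of 12 genes in HCT116, with 1 point per library, a bar at the mean and whiskers of 1 SD (n = 3) for the control and each siRNA. MCM4, CDC45, XRCC2, PRC1, CDKN3 and ID3 are lower in all BRD8 libraries than in all TIP60 and control libraries, whereas for MYC and KRT13 the TIP60 libraries stand above the others.

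At the replication fork 16 of 37 genes had a lower call and 0 a higher one (43.2%, against 16.0% of all genes tested), with a median of −0.70. The medians were −0.32 and −0.21 for siBRD8-6 (17 lower, 0 higher) and −1.19 and −1.06 for siBRD8-36 (34 lower, 0 higher). The direct test between the BRD8 siRNAs found 31 of the 37 lower with siBRD8-36 than with siBRD8-6, and 1 higher. CDC45, which joins the MCM ring to form the active helicase, stood at 14.4, 14.3 and 13.1 CPM with siBRD8-6, 7.45, 6.91 and 7.39 with siBRD8-36, 24.9, 25.4 and 25.1 with siTIP60-2, and 24.3, 23.7 and 23.9 with siTIP60-11. All 6 BRD8 libraries were lower than the TIP60 and the control libraries (23.2 to 27.7), with a mean difference of −1.29 (SE 0.0532, adjusted p = 1.72e-08). POLA1, the catalytic subunit of the primase-coupled DNA polymerase, stood at 30.9, 29.7 and 29.5 CPM with siBRD8-6, 27.7, 27.7 and 23.5 with siBRD8-36, 64.1, 62.9 and 64.8 with siTIP60-2, and 44.00, 48.8 and 50.01 with siTIP60-11. Its groups did not overlap either, with a mean difference of −0.98 (SE 0.0463, adjusted p = 5.25e-08). RECQL4, a helicase of replication initiation, gave −0.88 (SE 0.0366, adjusted p = 3.07e-08). PCNA, the sliding clamp, went against most of the list and was lower mainly with siBRD8-6, at 108 ± 6.34 CPM against 223 ± 7.59 with siBRD8-36 and 284 ± 2.78 and 297 ± 2.66 with the TIP60 siRNAs. Of the 16 calls, that of GINS3 (adjusted p = 0.0219) was lost when replicate 3 of siBRD8-6, replicate 3 of siTIP60-2 or any 1 library of siTIP60-11 was left out.

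Genes that supply nucleotides had 6 lower calls and 0 higher ones among 14 (42.9%, against 16.0% of all genes tested), with a median of −0.43. The medians were −0.16 and −0.21 for siBRD8-6 (6 lower, 1 higher) and −0.59 and −0.74 for siBRD8-36 (10 lower, 0 higher). SLC29A1, a nucleoside transporter, stood at 32.4, 35.8 and 32.04 CPM with siBRD8-6, 45.4, 46.5 and 49.4 with siBRD8-36, 67.1, 73.97 and 75.6 with siTIP60-2, and 89.6, 90.7 and 97.5 with siTIP60-11. All BRD8 libraries lay below all TIP60 libraries and below the control libraries (52.4 to 58.2), with a mean difference of −1.05 (SE 0.0425, adjusted p = 2.47e-08), and siBRD8-6 gave the lower level. DUT, which removes dUTP, gave −0.71 (SE 0.0419, adjusted p = 2.75e-06). CAD, which starts pyrimidine synthesis, gave −0.44 (SE 0.034, adjusted p = 1.62e-05). Its control libraries (151 to 181 CPM) overlapped the BRD8 libraries (177 to 209), and the TIP60 libraries (242 to 288) lay above both. TYMS, thymidylate synthase, did not separate by target: it stood at 142 ± 2.45 and 136 ± 8.79 CPM with the BRD8 siRNAs but at 240.4 ± 1.91 with siTIP60-2 and 63.7 ± 0.684 with siTIP60-11.

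Many genes of DNA repair by homologous recombination and the Fanconi anaemia pathway were also lower: 14 of 27 had a lower call and 0 a higher one (51.85%, against 16.0% of all genes tested), with a median of −0.94. The medians were −0.41 and −0.35 for siBRD8-6 (16 lower, 0 higher) and −1.22 and −1.35 for siBRD8-36 (22 lower, 1 higher). XRCC2, a protein of recombination repair, stood at 9.31, 8.33 and 9.66 CPM with siBRD8-6, 4.37, 3.62 and 3.48 with siBRD8-36, 18.6, 16.9 and 16.7 with siTIP60-2, and 20.4, 19.6 and 19.9 with siTIP60-11. The BRD8 libraries lay below the others, control included (15.6 to 20.8), with siBRD8-36 lowest and a mean difference of −1.66 (SE 0.0726, adjusted p = 8.72e-08). FANCG, a subunit of the Fanconi core complex, stood at 19.9, 21.1 and 18.4 CPM with siBRD8-6, 13.4, 12.95 and 13.5 with siBRD8-36, 45.5, 44.9 and 46.98 with siTIP60-2, and 38.1, 36.9 and 35.6 with siTIP60-11. Its groups did not overlap and the mean difference was −1.35 (SE 0.0453, adjusted p = 2.07e-10). BRIP1, a DNA helicase, gave −1.24 (SE 0.0583, adjusted p = 4.22e-07). Mismatch repair genes had 1 higher and 1 lower call among 7 (28.6%).

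Mitotic genes divided the BRD8 siRNAs. Over all 15725 genes tested, siBRD8-6 was higher than both TIP60 siRNAs for 2722 and lower for 2827, and siBRD8-36 was higher for 3369 and lower for 3559. Of 30 kinesin and kinetochore genes, all 30 were lower with siBRD8-36 than with both TIP60 siRNAs, whereas with siBRD8-6 8 were lower and 9 were higher. Of 23 mitotic kinases, cyclins and their regulators, 22 were lower with siBRD8-36, and 5 were lower and 4 higher with siBRD8-6. The direct test between the BRD8 siRNAs found 27 of the 30 and 22 of the 23 lower with siBRD8-36 than with siBRD8-6. In the pre-replication complex 11 of 14 were lower by that test, and 11 of 14 were still lower with siBRD8-6 than with both TIP60 siRNAs. CDK1, the kinase that drives entry into mitosis, is given as an example chosen after its values were seen. It stood at 86.1 ± 2.94 CPM with siBRD8-6 and 21.6 ± 1.98 with siBRD8-36, against 68.8 ± 1.28 and 88.1 ± 3.01 with the TIP60 siRNAs and 120.4 ± 3.25 in control cells (SD, n = 3 libraries). The siBRD8-6 level thus lay within those of the TIP60 siRNAs, and siBRD8-6 exceeded siBRD8-36 by 2.003 (SE 0.061, adjusted p = 5.34e-18). Among G1/S regulators, E2F1 was lower (−1.46, SE 0.0569, adjusted p = 1.18e-07) and E2F3 higher (0.69, SE 0.0359, adjusted p = 0.00577), and 3 of 17 had a lower call. For E2F3 the difference ran from 0.19 (siBRD8-36 against siTIP60-2) to 1.18 (siBRD8-6 against siTIP60-11). Its call was lost with limma on log2(TPM + 1) or log2(TPM + 0.1) and in the test against a fold of 1.2. Condensin subunits had 3 lower calls among 8 (NCAPH −1.17, SMC2 −1.05 and NCAPD3 −0.87), or 37.5% against 16.0% of all genes tested.

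A smaller set of mitotic genes was lower with every BRD8 siRNA, 8 of the kinesin and kinetochore list and 5 of the kinase and cyclin list, with 0 higher in either. These are 26.7% and 21.7% of the lists, against 16.0% of all genes tested called and 7.96% called lower. PRC1 stood at 64.9, 69.3 and 65.1 CPM with siBRD8-6, 48.2, 48.9 and 50.8 with siBRD8-36, 149, 147 and 160.1 with siTIP60-2, and 137, 145 and 143 with siTIP60-11. Its BRD8 libraries lay far below the TIP60 and the control libraries (177 to 201), with a mean difference of −1.36 (SE 0.0344, adjusted p = 8.01e-14). CDKN3 stood at 7.16, 8.39 and 8.11 CPM with siBRD8-6, 6.74, 7.92 and 8.03 with siBRD8-36, 19.8, 21.2 and 18.6 with siTIP60-2, and 18.6, 20.3 and 17.3 with siTIP60-11. The BRD8 siRNAs gave nearly equal levels, below all TIP60 libraries, which in turn lay below the control libraries (28.2 to 33.2), and the mean difference was −1.33 (SE 0.0706, adjusted p = 1.81e-09). ECT2, a guanine nucleotide exchange factor needed for cytokinesis, stood at 77.4, 78.7 and 81.8 CPM with siBRD8-6, 78.5, 77.5 and 74.8 with siBRD8-36, 161, 152 and 162 with siTIP60-2, and 147, 136 and 149 with siTIP60-11. The BRD8 libraries were at about the same level with either siRNA and apart from the rest, with a mean difference of −0.96 (SE 0.0336, adjusted p = 4.53e-12). CENPN, a protein of the inner kinetochore, gave −1.06 (SE 0.0383, adjusted p = 9.58e-11). CDC25B, a phosphatase that activates CDK1, gave −1.05 (SE 0.0314, adjusted p = 2.9e-09), with siBRD8-36 much the lower of the pair at 125, 141 and 134 CPM against 272, 276 and 269 with siBRD8-6.

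**Figure D4:**
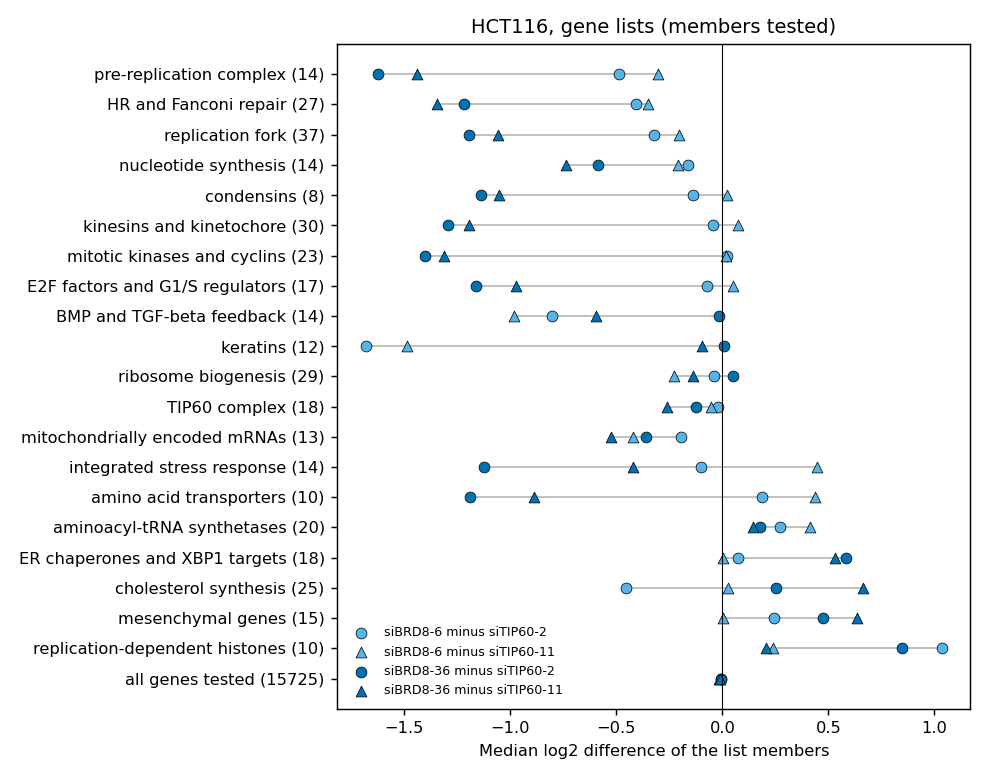
Median log2 difference of 20 gene lists and of all genes tested, for each of the 4 comparisons of a BRD8 siRNA with a TIP60 siRNA (light symbols siBRD8-6, dark symbols siBRD8-36), with the number of members tested in brackets. All 4 medians of the pre-replication complex are negative (−1.62 to −0.30), whereas for kinesins and kinetochore those of siBRD8-36 are −1.29 and −1.20 and those of siBRD8-6 are −0.04 and 0.07.

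Of the 12 genes ranked highest with the BRD8 siRNAs, TUBA1A, TPM1, MARCKS and VIM are described together. TUBA1A, an alpha-tubulin whose near-identical paralogs can share reads, stood at 101, 99.5 and 92.05 CPM with siBRD8-6, 184, 172 and 174 with siBRD8-36, 19.2, 20.01 and 24.6 with siTIP60-2, and 23.1, 24.4 and 25.9 with siTIP60-11. The control libraries (43.1 to 47.2) lay between, above the TIP60 and below the BRD8 libraries, and the mean difference was 2.52 (SE 0.0497, adjusted p = 5.85e-15). TPM1, a tropomyosin that coats actin filaments, stood at 28.9, 27.3 and 28.7 CPM with siBRD8-6, 42.1, 47.5 and 42.8 with siBRD8-36, 6.59, 6.07 and 5.86 with siTIP60-2, and 8.76, 9.44 and 9.05 with siTIP60-11. It was at 22.7 to 23.9 CPM in control cells, above all TIP60 libraries and below all BRD8 libraries, with a mean difference of 2.23 (SE 0.0556, adjusted p = 3.54e-13). MARCKS, an actin-binding substrate of protein kinase C, stood at 121, 114 and 115 CPM with siBRD8-6, 113, 114 and 110.3 with siBRD8-36, 39.8, 39.1 and 40.1 with siTIP60-2, and 40.2, 40.4 and 42.1 with siTIP60-11. Its 6 BRD8 libraries were close together and apart from the 6 TIP60 libraries, with a mean difference of 1.5002 (SE 0.0337, adjusted p = 7.5e-16) and control libraries between (80.9 to 92.96). VIM, the intermediate filament vimentin, was low in HCT116, at 5.30 to 8.05 CPM in the BRD8 and 1.31 to 2.94 in the TIP60 libraries, with a mean difference of 1.83 (SE 0.132, adjusted p = 3.45e-06). Its control libraries (5.29 to 6.92) overlapped the BRD8 libraries. The summed level of the 9 fibroblast markers was also higher in the BRD8 libraries (30.1 to 70.1 CPM, against 24.4 to 29.4), with DCN at 0 in all of them, and its part in the levels of VIM and TPM1 was not tested.

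Other genes ranked among the 12 highest had varied roles. MRS2, a magnesium channel of the mitochondrial inner membrane, stood at 108, 109 and 106 CPM with siBRD8-6, 82.6, 84.7 and 82.3 with siBRD8-36, 25.6, 25.96 and 23.6 with siTIP60-2, and 36.5, 34.9 and 35.02 with siTIP60-11. All BRD8 libraries were above all TIP60 libraries, with a mean difference of 1.66 (SE 0.036, adjusted p = 2.56e-14), and the control libraries lay between (70.4 to 75.1). ARRDC3, an arrestin-family adaptor, stood at 47.1 to 61.99 CPM in the BRD8 and 16.7 to 21.6 in the TIP60 libraries (1.57, SE 0.0491, adjusted p = 9.02e-13). ARL6IP5, a membrane protein of the endoplasmic reticulum, stood at 73.9 to 89.5 and 28.3 to 30.98 (1.42, SE 0.0362, adjusted p = 1.38e-14). For both, the groups were apart and the control libraries lay between them. NREP (2.19), PRKG2, a cGMP-dependent protein kinase (2.18), RAB3A, a GTPase of regulated secretion (1.60), and DNER, a transmembrane protein with EGF repeats (1.53), were at 15.1 CPM or less in every library of the 4 siRNAs.

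Some keratins and other epithelial genes were lower with the BRD8 siRNAs, and in several cases the TIP60 libraries stood above control. KRT13, a keratin of stratified epithelia, stood at 0.836, 0.539 and 0.358 CPM with siBRD8-6, 3.60, 5.44 and 3.80 with siBRD8-36, 23.3, 19.9 and 20.04 with siTIP60-2, and 35.4, 37.9 and 33.3 with siTIP60-11. Control libraries held 0.561 to 0.981 CPM, overlapping siBRD8-6 and below siBRD8-36, and the TIP60 libraries lay above all of these, with a mean difference of −4.13 (SE 0.112, adjusted p = 1.59e-11). KRT23 stood at 11.3, 10.8 and 11.4 CPM with siBRD8-6, 10.8, 9.33 and 9.29 with siBRD8-36, 33.8, 36.7 and 34.03 with siTIP60-2, and 41.96, 45.9 and 40.96 with siTIP60-11. All BRD8 libraries lay below and all TIP60 libraries above the control libraries (16.8 to 18.1), with a mean difference of −1.89 (SE 0.0526, adjusted p = 1.36e-13). Of the 12 keratins tested, 4 had a lower call (KRT15 −1.34 and KRT20 −1.81 besides) and 0 a higher one (33.3%, against 16.0% of all genes tested), with a median of −0.77. That median came from siBRD8-6, for which the medians against the TIP60 siRNAs were −1.68 and −1.49 (9 lower, 1 higher), whereas those for siBRD8-36 were 0.01 and −0.10 (4 lower, 3 higher). KRT8, KRT18 and KRT19, the keratins of simple epithelium, had no call. ELF3, an epithelial transcription factor, stood at 88.4 to 108 CPM in the BRD8 and 139 to 189.5 in the TIP60 libraries (−0.71, SE 0.0413, adjusted p = 1.16e-06), all above control (51.2 to 54.6).

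MYC, the transcription factor of cell growth, showed almost the same difference with every pair of siRNAs. It stood at 485, 471 and 479.8 CPM with siBRD8-6, 497, 433 and 524 with siBRD8-36, 1345, 1331 and 1349 with siTIP60-2, and 1309.6, 1345 and 1304 with siTIP60-11. The TIP60 libraries (1304 to 1349) were far above the BRD8 libraries (433 to 524), with control libraries at 361 to 396 and a mean difference of −1.47 (SE 0.0364, adjusted p = 2.24e-15). Of the other 10 genes of the MYC network tested, MXI1 (−0.33, SE 0.0527, adjusted p = 0.0496) had a call, which was lost without any 1 of 8 libraries. UGCG, which makes glucosylceramide, stood at 22.2, 21.7 and 20.4 CPM with siBRD8-6, 32.3, 28.3 and 29.04 with siBRD8-36, 120.2, 121 and 119.8 with siTIP60-2, and 157, 149 and 156 with siTIP60-11. The BRD8 libraries lay below and the TIP60 libraries above the control libraries (46.4 to 54.7), with a mean difference of −2.43 (SE 0.0383, adjusted p = 8.16e-18). CPA4, a secreted carboxypeptidase, stood at 81.5, 78.5 and 76.5 CPM with siBRD8-6, 26.00, 23.7 and 25.7 with siBRD8-36, 216, 186 and 202 with siTIP60-2, and 266, 265 and 265 with siTIP60-11. Its level was lowest in control cells (16.6 to 21.6), next with siBRD8-36, then siBRD8-6, and highest with the TIP60 siRNAs, with a mean difference of −2.38 (SE 0.0386, adjusted p = 5.85e-15). MATN2, a protein of the extracellular matrix, NANOS1, an RNA-binding protein, and CDCA7, also among the 12 lowest, had mean differences of −2.20, −1.90 and −1.61.

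The 4 ID genes, direct targets of BMP signalling, all had a lower call. They encode proteins that keep basic helix-loop-helix factors off DNA. ID3 stood at 47.7, 56.2 and 48.4 CPM with siBRD8-6, 35.99, 38.1 and 42.5 with siBRD8-36, 116, 138 and 121 with siTIP60-2, and 136, 145 and 150.4 with siTIP60-11. The BRD8 libraries lay below the control libraries (88.96 to 106) and the TIP60 libraries above them, with a mean difference of −1.60 (SE 0.055, adjusted p = 2.09e-09). ID1 stood at 161, 166 and 173 CPM with siBRD8-6, 145, 161 and 169 with siBRD8-36, 335, 399 and 362 with siTIP60-2, and 288, 295 and 303 with siTIP60-11. Its TIP60 libraries overlapped the control libraries (315 to 408) and its BRD8 libraries were below both, with a mean difference of −1.02 (SE 0.0426, adjusted p = 5.17e-09). ID2 gave −0.78 (SE 0.0442, adjusted p = 4.88e-07). ID4, at 0.106 to 0.403 CPM in the BRD8 and 0.588 to 1.40 in the TIP60 libraries, rests on few counts, and its call was lost without replicate 2 of siTIP60-2. BMP4, a ligand of this pathway, stood at 204, 220.3 and 199.97 CPM with siBRD8-6, 234, 225 and 226 with siBRD8-36, 435, 445 and 446 with siTIP60-2, and 355, 362 and 359 with siTIP60-11. All depleted libraries were above control (77.3 to 83.3), the TIP60 libraries more so, with a mean difference of −0.88 (SE 0.0295, adjusted p = 3.86e-11). In the list of BMP and TGF-beta feedback genes 5 of 14 had a lower call (SMAD9, −1.07, was the fifth) and 0 a higher one (35.7%, against 16.0% of all genes tested), with a median of −0.55. The medians were −0.80 and −0.98 for siBRD8-6 (9 lower, 1 higher) but −0.02 and −0.60 for siBRD8-36 (5 lower, 4 higher).

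Some core histone genes were higher. Of 21 listed replication-dependent histone genes 10 passed the filter on low counts, and 4 of these had a higher call and 0 a lower one (40%, against 16.0% of all genes tested), with a median of 0.62. Against siTIP60-2 the medians were 1.03 for siBRD8-6 and 0.85 for siBRD8-36. Against siTIP60-11 they were only 0.24 and 0.21, and the lowest mean difference of a member was −1.42. H2BC12 stood at 27.3, 25.2 and 22.7 CPM with siBRD8-6, 33.2, 33.7 and 32.9 with siBRD8-36, 7.71, 9.57 and 10.8 with siTIP60-2, and 12.97, 14.4 and 11.7 with siTIP60-11. All depleted libraries were above control (5.29 to 6.17), the BRD8 libraries furthest, with a mean difference of 1.38 (SE 0.0687, adjusted p = 1.01e-07). H2AC6, H2BC4 and H2BC5 gave 0.73, 1.90 and 0.56. H2BC4 stood at 1.80 to 2.89 CPM in the BRD8 and 0.294 to 0.967 in the TIP60 libraries, so it rests on few counts. Histone genes share sequence with close copies, so these values are less certain. The call of H2BC5 was lost without replicate 1 of siBRD8-6 or replicate 1 of siTIP60-2.

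Genes that charge tRNAs with amino acids and genes that fold proteins in the endoplasmic reticulum had more higher than lower calls, though most had no call. Of 20 aminoacyl-tRNA synthetases 7 had a higher call and 1 a lower one (40%, against 16.0% of all genes tested), with a median of 0.23. SARS1, which charges serine tRNA, stood at 274, 270.4 and 279.97 CPM with siBRD8-6, 261, 296 and 275 with siBRD8-36, 178, 204 and 185 with siTIP60-2, and 193, 215 and 187 with siTIP60-11. The BRD8 libraries were above the TIP60 libraries and both were below control (491 to 557), with a mean difference of 0.51 (SE 0.04, adjusted p = 2.1e-06). CARS1, for cysteine, gave 0.93 (SE 0.0398, adjusted p = 0.0413), and QARS1, for glutamine, was the lower call at −0.48 (SE 0.028, adjusted p = 0.000494). Of 18 chaperones and XBP1 targets 4 had a higher call and 0 a lower one, against 16.0% of all genes called, with a median of 0.27. The medians were 0.08 and 0.01 for siBRD8-6 (5 higher, 3 lower) and 0.58 and 0.53 for siBRD8-36 (12 higher, 1 lower). HSPA5, the main HSP70 of the endoplasmic reticulum, stood at 1648, 1703 and 1632 CPM with siBRD8-6, 1816, 1945 and 1858 with siBRD8-36, 1124, 1289 and 1271 with siTIP60-2, and 1139.5, 1136 and 1124 with siTIP60-11. Its BRD8 libraries were apart from its TIP60 libraries and overlapped control (1713 to 1868), with a mean difference of 0.57 (SE 0.0339, adjusted p = 3.08e-07). Lists of ATF4 targets held few calls: amino acid synthesis genes had 2 higher calls of 14 and amino acid transporters 0 of 10. In the transporters the BRD8 siRNAs went opposite ways against both TIP60 siRNAs. With siBRD8-36 8 of the 10 were lower and 0 higher, and with siBRD8-6 0 were lower and 4 higher. Over all 15725 genes tested, 3559 were lower with siBRD8-36 and 2722 higher with siBRD8-6. ATF5, a stress-induced transcription factor, was lower at −1.90 (SE 0.0534, adjusted p = 9.84e-11).

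Among 27 interferon-stimulated genes 3 had a higher and 1 a lower call, a share near the 16.0% of all genes tested. OAS3, which makes the activator of RNase L, stood at 15.8, 19.8 and 18.1 CPM with siBRD8-6, 28.8, 28.3 and 28.04 with siBRD8-36, 75.1, 71.9 and 75.3 with siTIP60-2, and 66.8, 70.1 and 63.3 with siTIP60-11. It was lower in the BRD8 libraries than in the control libraries (42.9 to 54.7), which lay below the TIP60 libraries, with a mean difference of −1.65 (SE 0.0462, adjusted p = 1.12e-12). The RNA sensor RIGI, listed as DDX58, was higher at 0.99 (SE 0.0641, adjusted p = 2.19e-07). BIRC3 was the 1 call among 14 NF-kappaB targets (−1.65, SE 0.0708, adjusted p = 0.000285), and it was lost with limma on log2(TPM + 1) or log2(TPM + 0.1). Of 15 protease and surface genes 0 were higher and 4 lower. MMP7, a matrix protease, stood at 1.68 to 3.96 CPM in the BRD8 and 7.14 to 10.3 in the TIP60 libraries (−1.80, SE 0.107, adjusted p = 1.14e-06), and PLAU, the urokinase, gave −0.90 (SE 0.0371, adjusted p = 4.88e-09). Of 15 mesenchymal genes 2 were higher (TPM1 and VIM) and 2 lower (SPARC, −2.86, and CAV1, −0.89). Lists with shares of calls below the 16.0% of all genes included ribosomal proteins (2 of 50), cholesterol synthesis (1 of 25) and intestinal regulators (1 of 13).

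The control libraries, used only as a description, show on which side of control a difference lay. For 1060 of the 2515 genes the control mean lay between the BRD8 and the TIP60 siRNAs, 569 of them higher and 491 lower with the BRD8 siRNAs. For 321 the order was control, BRD8 and TIP60 siRNAs, up or down, as for MYC. For 312 it was control, TIP60 and BRD8 siRNAs, as for PRC1 and CDKN3. In the remaining genes it fell between the siRNAs of 1 target, BRD8 for 440 and TIP60 for 382.

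SW480, a second human colorectal cancer line treated with the same siRNAs and not used for the four-way calls in HCT116, gave 12 libraries of 8.21 to 11.7 M counts. There 1671 of 15220 genes had a four-way call (11.0%). Of the 2515 HCT116 genes, 2393 could be tested in SW480, and 653 had the same call in both lines. These are 27.3% of the 2393 and 41.5% of the 1574 SW480 calls tested in HCT116. The call was opposite for 13 genes, and the sign of the mean difference was the same for 2107. How often the sign was the same over all genes tested in both lines is not given here. A direct test of the line difference (HCT116 minus SW480) was passed by 6334 of 17364 genes (36.5%), and by 1490 of the 2510 HCT116 genes in that fit (59.4%). The HCT116 libraries that gave the four-way calls also enter this test. Genes picked for a difference in HCT116 pass it more readily, so the 59.4% is not independent of that choice.

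In SW480 lower calls were made for 7 of 14 genes of the pre-replication complex, 14 of 37 of the fork and 17 of 27 of homologous recombination and the Fanconi pathway, with 0 higher in these lists. Nucleotide synthesis had 5 lower calls and 1 higher one there, and mismatch repair 1 of each. Mitotic genes had more calls there than in HCT116, 22 of 30 kinesin and kinetochore genes and 13 of 23 kinases and cyclins, against 11.0% of all genes. The line difference was called for 19 of the 30 and 12 of the 23, against 36.5% of all genes. PRC1 stood at 18.8 to 26.5 CPM in the BRD8 and 50.8 to 67.7 in the TIP60 libraries of SW480, a mean difference of −1.33 that did not pass the test against that in HCT116 (line difference −0.06, SE 0.0667, adjusted p = 0.557). XRCC2 (−1.45 in SW480) and CDKN3 (−1.56) did not pass it either. For MCM2 the difference in SW480 was −1.43 against −2.06 in HCT116, a line difference of −0.65 (SE 0.0655, adjusted p = 1.19e-09).

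For several epithelial, cytoskeletal and growth genes the difference was not the same in both lines. KRT13 stood in SW480 at 32.9, 27.2 and 32.4 CPM with siBRD8-6, 34.1, 38.3 and 35.7 with siBRD8-36, 22.2, 24.5 and 21.1 with siTIP60-2, and 28.02, 29.5 and 30.5 with siTIP60-11. There the siBRD8-36 libraries were highest and the mean difference was 0.37, against −4.13 in HCT116, a line difference of −4.52 (SE 0.133, adjusted p = 5.94e-23). VIM stood at 447 to 625 CPM in the BRD8 and 617 to 709 in the TIP60 libraries of SW480, with a line difference of 2.12 (SE 0.122, adjusted p = 6.5e-15). For MYC the SW480 levels were 304 to 336 CPM with siBRD8-6, 676 to 730.5 with siBRD8-36 and 632 to 673 with the TIP60 siRNAs. There siBRD8-36 lay just above the TIP60 siRNAs and siBRD8-6 far below them, and the line difference was −1.03 (SE 0.0535, adjusted p = 2.48e-16). BMP and TGF-beta feedback genes and replication-dependent histones, with 5 and 4 calls in HCT116, had 0 each in SW480, where 11.0% of all genes had a call. The line difference was called for 7 of 14 and 7 of 10, against 36.5% of all genes and 59.4% of the HCT116 four-way genes. ID3 was low in SW480, at 0.749 to 2.31 CPM in the depleted libraries, whereas the histone gene H2AC6 stood at 77.1 to 124.

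**Figure D5:**
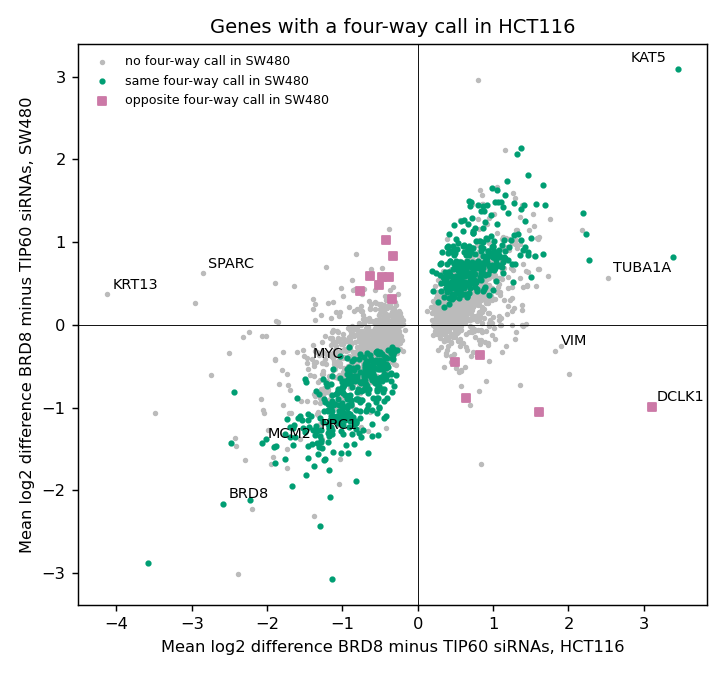
Mean log2 difference (BRD8 minus TIP60 siRNAs) in HCT116 (horizontal) and SW480 (vertical) for the genes with a four-way call in HCT116, with 1 point per gene. Of 2393 genes tested in both lines 653 have the same call in SW480 (green) and 13 the opposite call (squares), among them DCLK1.

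Of the 13 genes with opposite calls, 3 in each direction were named by rank. DCLK1, a microtubule-associated kinase, stood in HCT116 at 0.768 to 2.51 CPM in the BRD8 and 0.0691 to 0.24 in the TIP60 libraries, and in SW480 at 50.1 to 59.99 and 94.5 to 129. It was thus higher after BRD8 depletion in HCT116, where it rests on few counts, and lower in SW480, where its level was far higher, with a line difference of 4.06 (SE 0.256, adjusted p = 3.14e-14). ABL2, a tyrosine kinase, stood in HCT116 at 58.2 to 86.4 and 43.9 to 50.01 CPM and in SW480 at 39.6 to 60.3 and 75.2 to 97.3. The line difference was 1.505 (SE 0.0866, adjusted p = 7.94e-14). MTURN, DIS3L and ZNF581 were lower with the BRD8 siRNAs in HCT116 (−0.63, −0.48 and −0.52) and higher in SW480 (0.59, 0.57 and 0.48). The HCT116 calls of DCLK1, ABL2, MTURN and DIS3L were lost with limma on log2(TPM + 1) and on log2(TPM + 0.1). Those of DIS3L and ZNF581 were lost in the test against a fold of 1.2. Across the alternatives the HCT116 difference was as small as 0.42 for DCLK1 and −0.13 for MTURN. The noncoding gene AC004585.1 was higher in HCT116 (1.61) and lower in SW480 (−1.06), and its HCT116 call was lost without any 1 of 3 libraries (replicate 2 of siBRD8-6, replicates 2 and 3 of siTIP60-2).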

How the data were processed

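HCT116 and SW480 RNA (100 ng a library) was sequenced with a directional kit as single reads of 60 bases, per the labels' protocols. The submitters' processing notes name Trimmomatic 0.33 for trimming, STAR 2.7.3a, RSEM 1.3.3 and hg38. The annotation release and the strand setting used for counting were not given in the sources used here. Values deposited for 60617 genes per library are RSEM's expected count, per the file headers, in which a read that fits more than 1 gene is shared out. The same deposited files hold TPM, per the file headers, which corrects for length and library size and was used only in an alternative test. Genes with close copies (histones, tubulins, ribosomal proteins) and genes that overlap others or have an antisense partner are therefore less certain.

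Expected counts were rounded to whole numbers. The 12 HCT116 libraries were fitted alone with edgeR 4.0.16 in R 4.3.3 (quasi-likelihood, robust, TMM scaling, filterByExpr with a minimum count of 10), with 1 group per siRNA and no covariate. A single fit gave all 4 comparisons between siRNAs, the four-way call, the mean difference and the differences within a target. The line difference came from a fit of 24 libraries of both lines. Adjusted p-values are Benjamini-Hochberg over all genes tested, and the one beside a gene's difference is that of the largest of its 4 p-values. SE is the absolute log2 difference over the root of its F statistic. CPM levels use TMM scaling over the 15 HCT116 (or SW480) libraries, controls included. The steps were tested on simulated data with known changes.

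Genes named were BRD8 and KAT5, the 12 protein-coding genes higher and the 12 lower by the smallest of the 4 differences (mean count of at least 50), up to 4 called members of each of 42 gene lists, 5 genes in each direction by line difference, and 3 in each direction with opposite calls in the lines. CDK1, PCNA, TYMS, CDT1 and other list members outside this rule were chosen after their values were seen. The lists, the members and the four-way rule were chosen with earlier results of these data known, so they are not independent support for any pattern. Not all genes that the rule named are printed. Gene types and coordinates came from GENCODE release 29 (58444 of the 60617 identifiers found), and promoters from RefSeq on GRCh38.p14, for protein-coding genes outside chromosome 8. Replicates differed by more than sampling noise in every pair, with a chi-square of 2.07 to 8.42 per gene. Alternatives were DESeq2 1.42.0, other scalings and filters, limma 3.58.1 on TPM, a test against a fold of 1.2, all 15 HCT116 libraries, a replicate block, siRNA means as replicates, and leaving out each library.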

Additional observations from a re-analysis of the deposited data

Results flagged for a closer look

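The results below were set aside because the BRD8 against TIP60 difference itself differed between HCT116 and SW480, by the interaction test of edgeR over 24 libraries (HCT116 minus SW480, adjusted over 17364 genes). This held for 1490 of the 2510 genes with a four-way call in HCT116 that were tested there. It held for both targets, by −0.44 for BRD8 and 0.34 for KAT5. Genes with a four-way call were picked with the same HCT116 libraries, which favours a line difference in the direction of the call.

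Among the genes ranked highest with the BRD8 siRNAs in HCT116 the line difference was 1.93 for TUBA1A, 0.81 for NREP, 1.10 for TPM1, 0.90 for MARCKS, 1.07 for ARRDC3, 2.12 for VIM, 0.46 for ARL6IP5, 1.01 for PRKG2 and 0.78 for MRS2. In the genes ranked lowest it was −4.52 for KRT13, −1.65 for UGCG, −2.42 for NANOS1, −1.48 for KRT23, −0.62 for MCM4, −1.03 for MYC, −0.74 for CDCA7 and −1.29 for ID3. For MATN2 (0.02, adjusted p = 0.987) and CPA4 (0.65, adjusted p = 0.363), also ranked lowest, the line difference did not pass. Among genes named for their line difference and tested in both lines it was 4.06 for DCLK1, 2.64 for AC004585.1 and 2.58 for the histone gene H2BC11, and −3.50 for SPARC and −3.21 for KCNJ10. Of the genes with opposite calls in the lines, ABL2 gave 1.505, MTURN −1.24, DIS3L −1.07 and ZNF581 −1.01. H2BC11, KCNJ10, SPARC and AC004585.1 were under 6 CPM in every depleted HCT116 library, so their values rest on few counts. Genes below the filter in SW480 alone, such as DNER and RAB3A, are not included above. By the same interaction test DNER gave −1.59 (adjusted p = 0.0354) and RAB3A −0.45 (adjusted p = 0.469). Both are opposite in sign to the other genes ranked highest. Their levels were at most 1.22 CPM in the depleted SW480 libraries. The SW480 libraries held fewer counts (8.21 to 11.7 M against 14.7 to 18.6 M), and the part of depth in these differences was not tested.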

How the results depend on the processing

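The count of four-way calls (2515) was lower with limma on log2(TPM + 1), 1443 (862 higher, 581 lower), or on log2(TPM + 0.1), 1414 (848 higher, 566 lower), and with each difference tested against a fold of 1.2, 874. With siRNA means as the replicates 0 genes passed limma's test of the mean difference (1407 at an unadjusted p under 0.05). Against both TIP60 siRNAs, siBRD8-6 alone gave 5549 calls and siBRD8-36 alone 6928, both chosen after seeing the data. DESeq2 gave 2130, RLE scaling 2517, upper-quartile scaling 2509, no filter 2425, a CPM filter 2525 and all 15 HCT116 libraries 2073. Leaving out 1 library gave 2233 to 2531 four-way calls, 9998 to 10327 mean differences and 5900 to 6272 line differences. In all, 724 of the four-way calls were kept in every alternative fit. Of 141 named genes 75 kept their call in every alternative and 0 changed sign, and 6 of 40 list medians changed sign in at least 1. Calls lost with limma on log2(TPM + 1) and on log2(TPM + 0.1) included those of SMAD9, KRT15, QARS1, SPRY4 and BAZ2B. For KRT15, QARS1 and SPRY4 the call was also lost in the test against a fold of 1.2.

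Replicates share only a number. The deviations of same-numbered libraries correlated at 0.00050 to 0.139 over 18 pairs, and 10 of the 12 libraries correlated best with their own number. A replicate block gave 2570 four-way calls, 10423 mean differences and, within line, 6220 line differences.

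Scaling moved the median of all genes by under 0.1. With about 15 M counts, genes near 1 CPM rest on few counts per library, and 3 libraries of 2 siRNAs per target limit what can be said beyond these siRNAs.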

Other observations

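Counts of calls in the lists below stand beside 16.0% of all genes tested. In glycolysis, 20.8% had a call: 4 of 24 hypoxia and glycolysis genes were higher with the BRD8 siRNAs and 1 was lower. HK1, a hexokinase that phosphorylates glucose, stood at 88.2, 93.6 and 87.2 CPM with siBRD8-6, 129, 139 and 134 with siBRD8-36, 62.8, 63.2 and 63.8 with siTIP60-2, and 66.5, 63.6 and 64.4 with siTIP60-11, with a mean difference of 0.77 (SE 0.0333, adjusted p = 8.95e-08) and control libraries (119 to 132) that overlapped those of siBRD8-36. LDHA, which turns pyruvate to lactate, gave 0.44 (SE 0.03, adjusted p = 0.000746), and PKM, a pyruvate kinase, gave 0.40 (SE 0.0319, adjusted p = 4.03e-05). Among brakes on proliferation, 2 of 14 were higher and 3 lower (35.7% in all). TOB1, an antiproliferative adaptor, stood at 90.7, 87.9 and 86.9 CPM with siBRD8-6, 33.5, 31.9 and 33.3 with siBRD8-36, 142, 145 and 140.02 with siTIP60-2, and 129, 128 and 135 with siTIP60-11, lowest with siBRD8-36 and with a mean difference of −1.34 (SE 0.0319, adjusted p = 8.04e-10). CDKN2D, an inhibitor of CDK4 and CDK6, was higher (1.15, SE 0.0848, adjusted p = 0.00071), and its relative CDKN2B was lower (−0.75, SE 0.0539, adjusted p = 1.33e-07).

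In the ERK pathway, feedback genes split as 2 higher and 2 lower of 14 (28.6%). SPRY4, which dampens receptor signalling, gave 0.62 (SE 0.0335, adjusted p = 6.55e-05), and PHLDA1 gave −0.76 (SE 0.029, adjusted p = 8.99e-11). The integrin subunit ITGA5, part of the fibronectin receptor, stood at 168 to 198 CPM in the BRD8 and 96.97 to 112 in the TIP60 libraries (0.84, SE 0.0319, adjusted p = 7.06e-11), and ITGB8, which pairs with integrin alpha V, stood at 11.7 to 19.8 and 35.6 to 43.9 (−1.29, SE 0.0681, adjusted p = 8.43e-08). Of 22 other bromodomain genes, 2 were higher and 1 lower (13.6%, below the share of all genes): BAZ2B gave 0.75 (SE 0.0486, adjusted p = 2.11e-07) and BRPF3, a scaffold of other acetyltransferase complexes, gave −0.87 (SE 0.0468, adjusted p = 2.58e-07).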
